A study of Homo sapiens with 24 samples.

Results

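The comparison described here set anti-m1A immunoprecipitated RNA that had been treated with a demethylase against immunoprecipitated RNA left untreated, in wild-type HEK293T cells, a human embryonic kidney line. It covers 4 of the 24 samples of the series, namely 2 replicates of the immunoprecipitation (IP) and 2 of the IP followed by demethylase. The members were taken by their labels, and the values are the deposited coverage tables of the 2 wild-type replicates, which hold treated and IP coverage for 10-nt windows placed every 5 nt. All groups used here were cells grown in DMEM with serum and given no stress, and the libraries came from polyadenylated RNA, 40 µg of it from 2.5 mg of total RNA. Reverse transcription was by AMV reverse transcriptase with dNTP lowered to 0.2 mM. Cells without ALKBH3 (ALKBH3 KO HEK293T), with the same 2 kinds of library in 2 replicates each, are used once below for contrast. The labels do not say whether the knockout is 1 clone, nor whether replicates were separate cultures, so the p-values below speak of these libraries and may reflect technical spread alone.

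N1-methyladenosine (m1A) carries its methyl group on the Watson-Crick face of the base, where it blocks ordinary pairing. Reverse transcriptases tend to stop or misread at it, so that cDNA from a methylated molecule can end just 3′ of the mark. Enzymes of the AlkB family remove the methyl group by oxidation, after which the base can be copied through, and treated coverage set against untreated coverage therefore bears on where along a transcript the mark lies. In mRNA m1A is known mostly from regions near the transcript start, and in ribosomal RNA from 28S rRNA.

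The tables held 31941 and 35879 windows in 799 and 805 regions, on 790 and 794 RefSeq transcripts. Positions are nucleotides along a transcript, counted from its 5′ end, and are not genome coordinates. Coding and untranslated positions were not told apart here. Every region ran from 50 nt before a peak of its own replicate's list, or from nt 1, to the end of that peak, so only called peaks were covered. Of the 2175 and 3410 peaks in the lists, 36.7% and 23.6% had windows. Deposited coverage had been scaled per region, with a median sum of 200.2 for IP and 200.1 for treated in the first table. Sums ran from 166.7 to 211.5 for IP and from 171.6 to 250 for treated there, and up to 500 for treated in the second table. Total coverage of a region was therefore not compared between treated and IP. Once each region is rescaled to 1 total, only the place of its coverage can differ, and a gain in one stretch goes with a loss in another.

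The treated coverage was 1 sample, not 2. After rescaling, the treated values in both tables were the same to a relative difference of at most 7.03e-14, whereas the IP values were separate. It was counted once, and which treated replicate it came from, or whether both were pooled, is not given. The treated library also had more empty windows and fewer levels. Windows at 0 made up 20.6% and 21.4% of treated values against 5.84% and 4.98% of IP values. A region held a median of 16 and 17 distinct treated values against 24 and 31 distinct IP values, and 82 and 79 regions had fewer than 5. The depth of the treated library is unknown. The part of this thinner coverage in the differences below was not tested, and the number of distinct treated values is given for many of the regions named.

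The windows shared at the same start numbered 13270, in 356 regions of 355 transcripts and 247 genes, and these carry the comparison unless stated otherwise. The other common regions were out of register by 1 or 2 nt (28933 windows in 798 regions, when matched within 2 nt). Each sample's windows in a shared region were rescaled to sum to 200.

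The region with the deepest coverage was on 28S rRNA (the feature NR_003287.2_rRNA, nt 638 to 1717), and it is given first for that depth, a choice made after its values were seen. Its summit pileup, the height of the stack of reads at the peak's summit, was 968016 and 2469560 in the authors' 2 peak lists, and it held 215 distinct treated values. In both IP samples coverage was highest in the window at nt 1383 to 1392. In the treated sample the highest window was at nt 1293 to 1302, which is 90 nt toward the 5′ end. Coverage 5′ of nt 1342, the midpoint between those windows, was 37.3% of the span in IP replicate 1, 43.5% in IP replicate 2 and 78.1% in treated. The treated sample lay far above both IP samples, which were close to each other. Within 90 nt on the 5′ side of the midpoint, IP replicate 1 had 15.3%, IP replicate 2 had 21.0% and treated had 52.9% of coverage. Within 90 nt on its 3′ side the order was the reverse, with 43.4% and 39.0% in IP and 19.5% in treated. The coverage-weighted mean position, or centroid, of the region was nt 1322.7 and 1316.4 in IP and nt 1282.0 in treated, a shift of −37.6 nt. At single windows of deposited coverage, nt 1278 to 1287 went from 1.72 and 2.45 in IP to 6.41 in treated, and nt 1428 to 1437 from 5.17 and 4.70 to 0.970. The first of these lies in the 5′ block that treated coverage occupies, and the second in the 3′ block, where treated coverage was lower than in both IP samples.

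**Figure D1:**
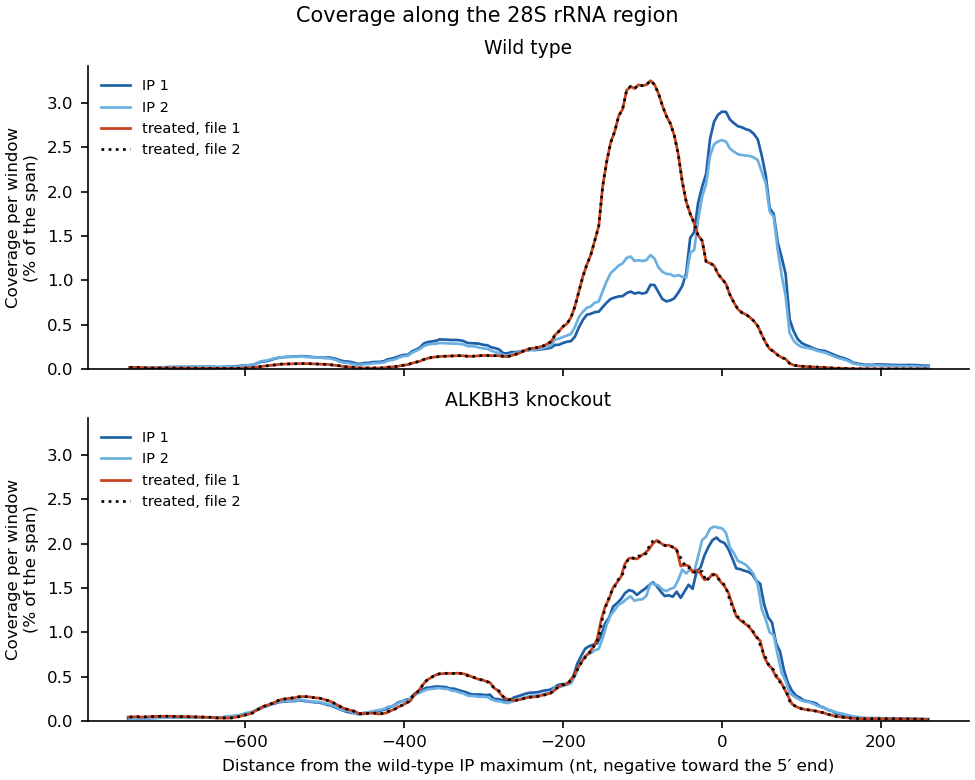
Coverage per 10-nt window along the 28S rRNA region, as a percent of the coverage in nt 638 to 1650 (y axis), against distance from the wild-type IP maximum (x axis, nt), with 1 line per library for wild type (top) and ALKBH3 knockout (bottom). The 2 treated lines of a genotype lie on each other, and in wild type the treated maximum sits 90 nt to the 5′ side of the IP maximum.

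The same rRNA in knockout cells held a smaller difference. Over the same span, 56.9% and 54.6% of IP coverage lay 5′ of nt 1342, against 68.1% and 67.0% of treated coverage, the 2 tables being out of register and the treated coverage again 1 sample. The wild-type IP samples therefore had less coverage on the 5′ side than the knockout IP samples, with no overlap between the pairs, and wild-type treated had more than knockout treated. No test of this difference was run, because the windows were out of register between genotypes.

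How far treated profiles departed from IP was measured as the displaced share, the percent of a region's coverage that would have to be moved to turn one profile into the other. Between the 2 IP samples its median over the 356 regions was 7.64% (quartiles 5.35% and 11.2%). Between treated and IP it was 15.7% against replicate 1 (9.50% and 25.3%) and 14.7% against replicate 2 (9.83% and 23.1%). In 262 regions (73.6%) treated was farther from both IP samples than these were from each other. The share depended on depth: in the 89 regions with the lowest pileup the IP samples differed by 10.1% and treated from IP replicate 1 by 17.9%, and in the 89 with the highest pileup by 6.23% and 13.1%. Regions with at least 10 distinct treated values had medians of 14.2% and 13.3% (279 regions), and the others 26.9% and 22.7% (77 regions). Across the 11955 windows kept, Pearson's r was 0.864 between the IP samples and 0.645 and 0.721 between treated and each of them, given as a description, since windows overlap and share their region's scaling.

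**Figure D2:**
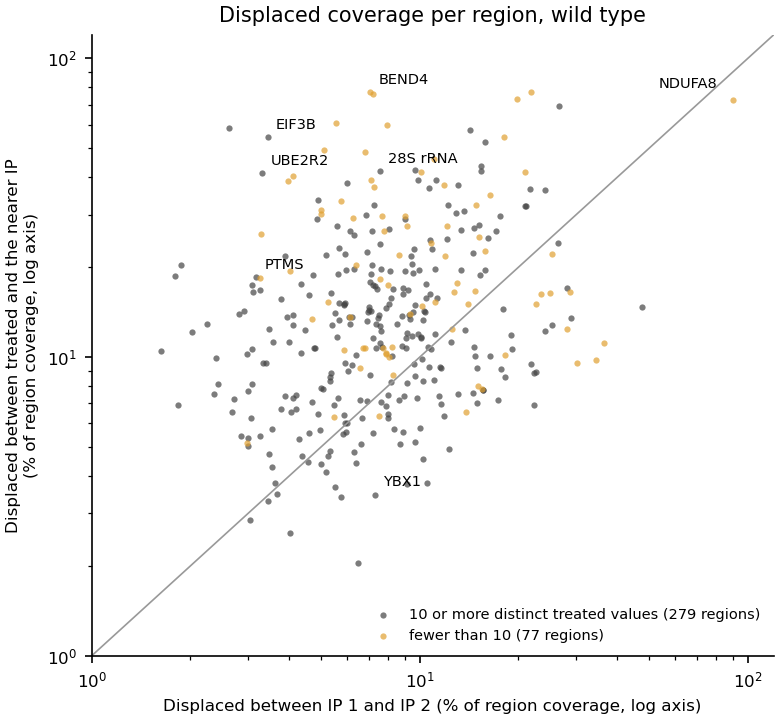
Displaced share between treated and the nearer IP sample (y axis, percent of region coverage, log scale) against that between the 2 IP samples (x axis, log scale), 1 point per shared region. Points above the diagonal line, 262 of 356, had treated coverage farther from both IP samples than these were from each other.

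Among the 14 genes whose shared region had a pileup of at least 1000, treated was farther from both IP samples than these were from each other in 12. Over all 247 genes, with 1 region per gene, the same held in 74.9%. The medians of the 14 genes were 3.33% between IP samples and 14.3% and 13.5% between treated and IP, with 34 to 215 distinct treated values. PCBP1, an RNA-binding protein of the poly(C) family, had 1.80% between IP samples and 18.7% and 19.5% to treated. CHCHD10, a small mitochondrial protein, had 2.02%, 12.1% and 13.6%. YBX1, the Y-box RNA-binding protein, was one of the 2 exceptions, with 7.30% between IP samples and 3.47% and 4.62% to treated. The other was UBB, which encodes ubiquitin, with 17.4% between IP samples and 7.18% and 23.6% to treated, so there IP replicate 2 stood apart. This set was chosen by depth after the values were seen.

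The 6 genes with the largest excess of treated over IP distance were BEND4, PAQR3, NSMF, STRBP, EIF3B and MARVELD1. EIF3B, a core subunit of the translation initiation factor eIF3, differed by 3.44% between IP samples and by 55.0% and 54.4% from treated, with 12 distinct treated values. STRBP, a double-stranded RNA-binding protein, differed by 7.94% and by 66.3% and 59.7%, with 8 distinct treated values. BEND4 differed by 7.08% and by 79.7% and 77.2%, but on 3 distinct treated values. NSMF (19.8% against 85.7% and 73.1%) had 3 as well, and PAQR3 and MARVELD1 had 6 each, so these profiles rest on few levels. At the other end stood JMJD8, IP6K2, NDUFA8, DDX42, KIAA2013 and CASKIN1, where the IP samples were far from each other. In NDUFA8, a subunit of respiratory complex I, the IP samples differed by 90.4%, and all coverage of IP replicate 1 lay in the last 2 of 30 windows, with 100 in each, against a highest value of 12.1 in IP replicate 2. JMJD8 differed by 47.6% between IP samples, and treated lay near IP replicate 2 (14.8%) and far from IP replicate 1 (59.5%). IP6K2, an inositol hexakisphosphate kinase, behaved alike, with 36.5% between IP samples and 27.1% and 11.1% to treated, on 4 distinct treated values. For DDX42, a DEAD-box helicase, KIAA2013 and CASKIN1, the IP samples differed by 22.4%, 22.6% and 21.9%.

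Transcripts of 1 gene repeat much of the same signal within a library. For 123 pairs of transcripts of 55 genes whose region had the same start and end, the displaced share between the transcripts was a median of 4.37% in IP replicate 1, 3.03% in IP replicate 2 and 5.02% in treated (quartiles 2.47% and 12.6%). These distances lie within 1 library, so they are no measure of the spread between samples. In some genes the transcripts were far apart. Between 2 transcripts of NSMF, NM_001130970 and NM_001130971, the treated profiles differed by 69.7% against 7.16% and 5.26% in IP. EIF3B was among the genes whose transcripts were alike in treated, with 4.96%.

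Mean treated coverage over genes was above IP 5′ of the summit and below IP 3′ of it, but on both outer flanks treated was higher in only a minority of genes. To keep the alignment independent of the coverage shown, each table was aligned on the summits of the other replicate's peak list, with 1 region per gene. In the first table, at 40 nt 5′ of the summit, treated coverage averaged 6.66 and IP 6.17 over 537 genes, and treated was higher in 55.1% of genes. At 60 nt 3′ of the summit treated averaged 4.38 and IP 5.07 over 375 genes, and treated was higher in 39.2%. In the second table the same positions held 6.11 and 5.52 (544 genes, 56.6% higher in treated) and 3.95 and 4.85 (452 genes, 37.4%). Both tables share the treated coverage, so their likeness on the treated side is not independent. Empty positions were more frequent in treated on both flanks: in the first table, coverage was 0 in 45.0% of genes in treated and in 20.6% in IP at 100 nt 5′ of the summit, and in 29.6% and 2.22% at 100 nt 3′ of it. At 100 nt 5′ the treated mean (1.38) was above that of IP (1.26), yet treated was higher in only 32.8% of 427 genes. The same held in both tables in every bin from 140 to 60 nt 5′ of the summit. At 80 nt 5′ treated was higher in 39.5% and 44.7% of genes. It was higher in most genes only from 40 nt 5′ to 20 nt 3′ of the summit. At the start of the transcript itself, in windows from nt 1 to 25, coverage was low in both, with means of 0.652 in treated and 0.640 in IP over 283 genes in the first table.

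**Figure D3:**
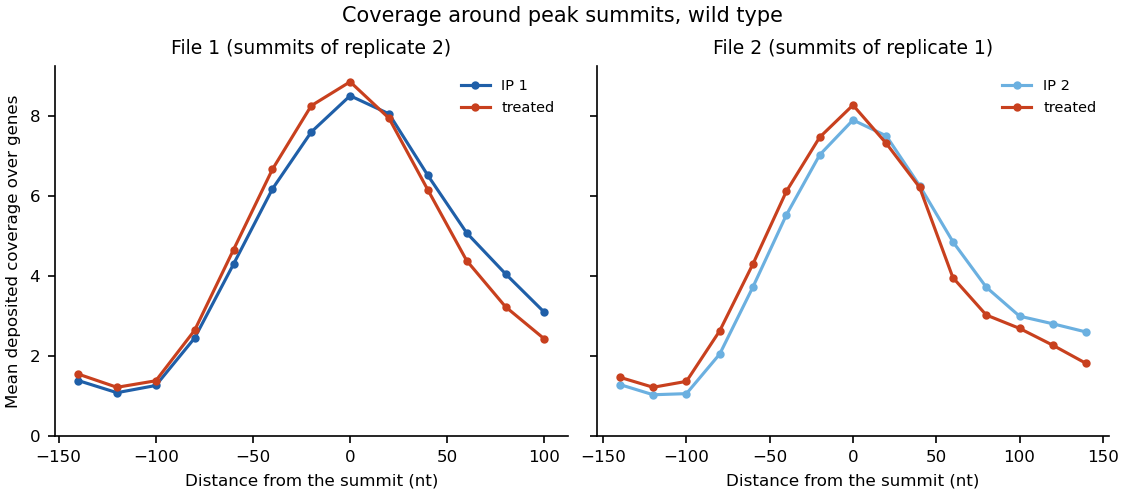
Mean deposited coverage over genes (y axis) against distance from the peak summit of the other replicate (x axis, nt, bins of 20 nt, at least 100 genes per point), for the first table (left) and the second (right). In both, mean treated coverage lies above IP from 140 nt 5′ of the summit up to the summit and below IP from 20 nt 3′ of it onward.

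With each region divided into 3 equal parts, the mean difference was small. The 5′ part held a mean of 16.5% and 15.8% of coverage in IP and 16.4% in treated, the middle part 45.0% and 45.1% against 46.4%, and the 3′ part 38.5% and 39.1% against 37.2%. The middle share was above both IP samples in 183 regions and below both in 107. By limma, the share of the 5′ part was higher in treated in 12 regions (3.37%) and lower in 3 (0.843%). The middle part was higher in 27 (7.58%) and lower in 19 (5.34%), and the 3′ part higher in 16 (4.49%) and lower in 15 (4.21%, or 8.71% in either direction). The balance between higher and lower was not stable. With 1 region per gene the calls were 6 and 7 for the middle part and 23 and 43 for the 3′ part. With regions matched within 2 nt they were 61 and 69 for the middle part and 0 and 0 for the 3′ part, and with at least 10 distinct treated values 20 and 37 for the 3′ part. No direction is therefore read from these counts.

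Single regions moved much farther than the average, and in both directions. The centroid was called toward the 5′ end in 40 regions of 32 genes (11.2% of 356) and toward the 3′ end in 26 regions of 22 genes (7.3%), by limma with Benjamini-Hochberg adjustment over all regions. Treated lay 5′ of both IP centroids in 157 regions, 3′ of both in 130 and between them in 69. The median shift over all regions was −0.86 nt, so shifts in opposite directions nearly balanced. Of the called regions, 13 toward 5′ and 9 toward 3′ had fewer than 10 distinct treated values. With regions matched within 2 nt, on 798 regions, the calls numbered 22 and 13. The fit used 1 standard error of 8.44 nt for every region, since the spread was pooled over regions and the lone treated sample was taken to vary as the IP samples do. The treated sample has no spread of its own, so each adjusted p below holds only under that assumption.

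Among the shifts toward 5′, the ones named here were chosen after their values were seen, for the number of distinct treated values. UBE2R2, a ubiquitin-conjugating enzyme that works with cullin-RING ligases (NM_017811, 46 distinct values), had centroids of nt 144.1 and 144.7 in IP and nt 101.2 in treated (−43.1 nt, adjusted p = 1.10e-05). The window at nt 81 to 90 held 4.90 and 4.35 in IP and 12.5 in treated, and the window at nt 171 to 180 held 6.87 and 6.92 in IP and 2.64 in treated. IP coverage was thus highest on the 3′ side and treated coverage on the 5′ side. FAM50A, a nuclear protein tied to the spliceosome (NM_004699, 28 values), shifted by −37.5 nt (adjusted p = 1.43e-04). Its window at nt 86 to 95 held 6.99 and 6.96 in IP and 12.2 in treated, and the one at nt 181 to 190 held 3.90 and 3.38 in IP and 0 in treated. MTA1, a subunit of the NuRD chromatin complex (NM_001203258, 38 values), shifted by −26.0 nt (adjusted p = 0.0133). Its treated coverage at nt 111 to 120 was 5.54 against 2.54 and 1.92 in IP, and at nt 221 to 230 it was 2.03 against 6.58 and 7.70. Its other transcript had −11.9 nt and did not pass (NM_004689, adjusted p = 0.384).

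ZIC2, a zinc finger transcription factor, had its shared region far from the transcript start, at nt 1711 to 1905 (NM_007129, 29 values), and shifted by −40.5 nt (adjusted p = 4.60e-05). At nt 1711 to 1720 it held 0.54 and 1.38 in IP and 6.82 in treated, and at nt 1891 to 1900 5.58 and 6.78 in IP and 0.0742 in treated. BRD7, a bromodomain subunit of a SWI/SNF complex (NM_013263, 30 values), had the largest shift of all, −87.0 nt, but its IP centroids were themselves far apart, at nt 229.6 and 191.9, against nt 123.7 in treated. Its second transcript shifted by −35.7 nt. ENAH, an actin regulator, shifted by −40.0 nt in NM_001008493 (19 values; −21.0 nt and not called in its other transcript), MAPK3, the kinase ERK1, by −24.2 nt (24 values), and CARM1, an arginine methyltransferase, by −27.8 nt (28 values). GRK2, a kinase of G protein-coupled receptors, shifted by −27.0 nt (54 values). In the phosphatase gene PTPRU and the zinc finger gene PATZ1 3 of 4 transcripts were called toward 5′, and in SLIRP, a mitochondrial RNA-binding protein, 3 of 3. In each of these called regions the treated centroid lay 5′ of both IP centroids, which the call itself largely fixes.

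Shifts toward 3′ included genes with deeper coverage as well. PTMS, which encodes parathymosin, a small acidic nuclear protein (NM_002824, 58 values, pileup 2128 and 4661), had centroids of nt 115.8 and 119.7 in IP and nt 148.3 in treated (+30.5 nt, adjusted p = 0.00276). Its main rise at nt 81 to 90 was 9.61 and 9.51 in IP and 7.65 in treated, and a low rise further 3′, at nt 221 to 230, was 1.91 and 2.08 in IP and 4.07 in treated. GNAS, the stimulatory G protein alpha subunit, was called in 1 of its 4 transcripts in the fit (NM_080426, 80 values), with +31.6 nt (adjusted p = 0.00182). The window at nt 301 to 310 held 0.325 and 0.352 in IP and 1.53 in treated. Its other transcripts had +15.0 to +17.4 nt, which did not pass (NM_000516, adjusted p = 0.151). YY1, a zinc finger transcription factor (NM_003403, 52 values), shifted by +46.5 nt (adjusted p = 2.03e-06). Coverage at nt 218 to 227 was 2.04 and 3.34 in IP and 0.0774 in treated, and at nt 333 to 342 6.21 and 4.75 in IP and 10.2 in treated.

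EIF3B shifted by +38.3 nt in NM_001037283 (adjusted p = 1.08e-04) and by +39.5 nt in NM_003751 (adjusted p = 6.36e-05). At nt 91 to 100 its coverage was 9.32 and 9.06 in IP and 0 in treated, and at nt 171 to 180, the last window, 3.70 and 4.14 in IP and 28.5 in treated. Treated coverage was thus still rising where the region ends, and what lies beyond is outside the deposited windows. EEF1A2, a translation elongation factor, shifted by +27.9 nt in a region at nt 1603 to 1937 (46 values), while its region near the start, nt 22 to 291, had +0.89 nt (adjusted p = 0.983). SOX12, a transcription factor, shifted by +38.8 nt (37 values). MEIS3, a homeobox gene, by +76.8 nt, and GEMIN4, a component of the SMN complex, by +64.3 nt had 13 and 11 values.

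**Figure D4:**
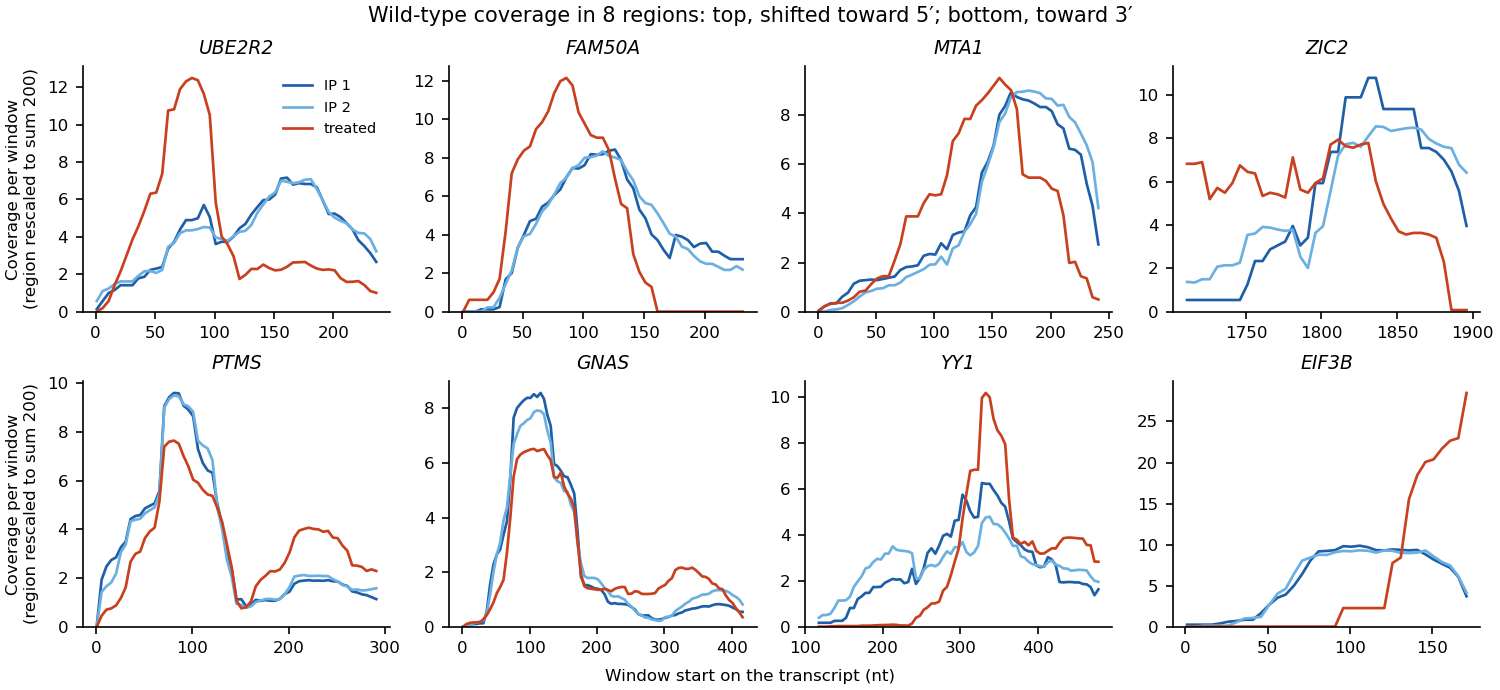
Coverage per window, rescaled so that a region sums to 200 (y axis), against the window's start on the transcript (x axis, nt) for 4 regions whose centroid was called toward 5′ (top) and 4 called toward 3′ (bottom), with 1 line each for IP 1, IP 2 and treated. The IP lines run close together in UBE2R2, PTMS and EIF3B, and the treated line leaves both.

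**Figure D5:**
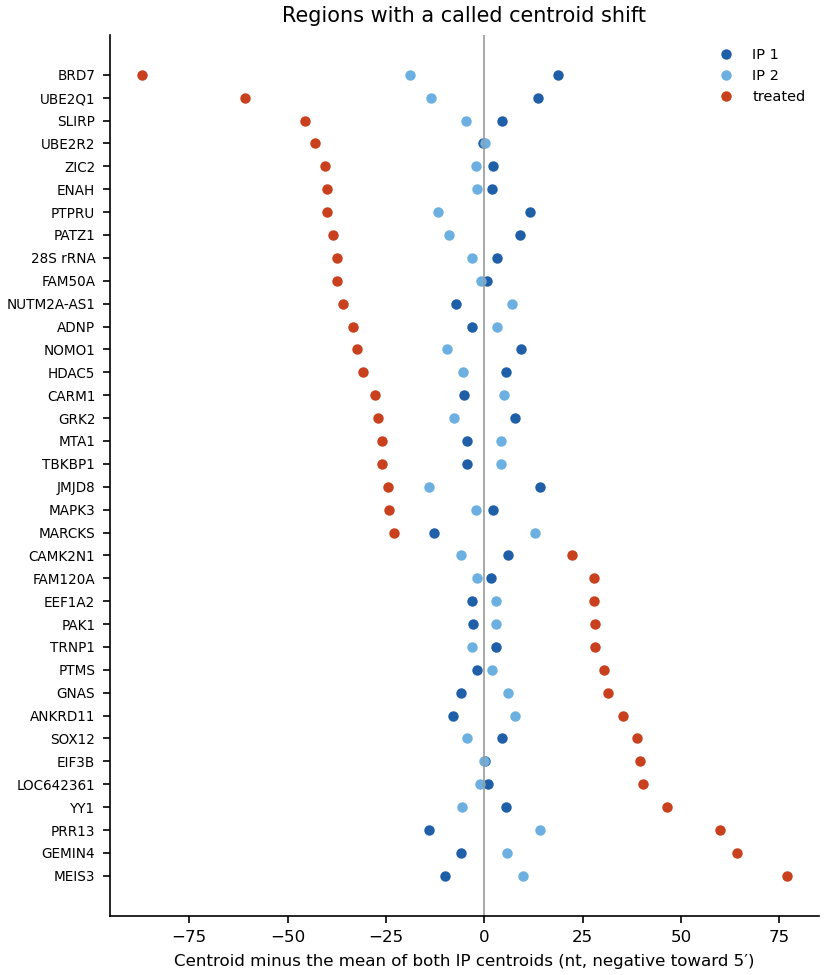
Centroid of each library minus the mean of both IP centroids (x axis, nt) for the genes with a called shift and at least 10 distinct treated values, showing the transcript with the larger shift where a gene had several. All treated points lie outside the pair of IP points of their gene, 21 genes toward 5′ and 15 toward 3′, which the choice of called regions largely fixes.

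At the level of windows, losses outnumbered gains. By limma, 69 of 11955 windows were higher in treated (0.577%, with 7.02% called in either direction), in 31 regions of 27 genes, and 770 were lower (6.44%), in 136 regions of 104 genes. Treated coverage was 0 in 583 of the lower windows, and IP coverage was 0 in both samples in 17 of the higher ones. Such windows passed the filter on low values only through the group in which they are high. The adjusted p of every call lay between 0.0303 and 0.0498, close to the threshold of 0.05. No window was called in either direction without the filter on low values or without rescaling, although 1218 and 2346 windows and 868 and 1840 windows, higher and lower, had an unadjusted p under 0.05. With at least 10 distinct treated values the counts were 12 and 227. Of the higher windows 65.2% lay 5′ of the peak summit of replicate 1, as did 39.1% of the lower windows and 56.8% of all windows tested. The genes with most higher windows were CKS1B with 9, MFGE8 with 7, and EIF3B and NDUFA8 with 6 each. Those with most lower windows were PATZ1 with 34, EIF3B and PTPRU with 31 each, and CUL4B with 30, counted over all their transcripts. Of the 247 genes, 10.9% had a higher window and 42.1% a lower one.

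A count by fold alone, with no test, held more losses than gains. It rests on the same treated sample and its empty windows, so it is no separate support. As regions are scaled to about the same sum, neither count is a net loss of coverage. Windows at least 2-fold higher than IP in both tables, on log2(coverage + 0.5) of the deposited values, numbered 558 of 11928 (4.68%) in 99 genes, and windows at least 2-fold lower 1675 (14%) in 165 genes, 964 of them with treated at 0. The count of higher windows moved with the setting: it was 992 without IP replicate 1, 1016 without IP replicate 2 and 229 with a pseudocount of 2. Lower windows numbered 1948, 1998 and 945 in these settings. Treated was on the same side of IP in both tables in 81.8% of windows. This is no replication, since both tables hold the same treated coverage and much of the agreement is built in. Of 84 regions that held both a gain and a loss by this rule, the gain lay 5′ of the loss in 54 and 3′ of it in 30. With 1 region per gene these were 39 and 22.

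The strongest agreed gains fell in windows where IP coverage was at or near 0. In NDUFA8 the window at nt 35 to 44 held 10.8 and 12.9 in treated and 0 in both IP samples, the treated values differing only through the scale of each table. As given above, IP replicate 1 had all its coverage at the end of this region. Its 0 therefore adds little, and the region had 6 distinct treated values. In ISCU, the scaffold for iron-sulfur cluster assembly, nt 89 to 98 held 6.16 in treated and 0 in both IP samples. In NFKB2, the p100 subunit of NF-κB, nt 118 to 127 held 5.35 and 0. In CKS1B, a subunit that binds cyclin-dependent kinases, nt 6 to 15 held 4.14 and 0, and in SLC7A2, a transporter of cationic amino acids, nt 16 to 25 held 2.59 and 2.67 and 0. In these 5 windows the IP samples have no spread, so no test is given for them. GANAB, the catalytic subunit of glucosidase II, held 3.61 and 3.25 in treated and 0.124 and 0.108 in IP at nt 99 to 108, a log2 ratio of 2.63 in the table nearer 0. LOC389906, a noncoding transcript, held 6.71 and 6.94 in treated and 0.881 and 0.912 in IP at nt 16 to 25, a log2 ratio of 2.38.

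The remaining 5 of the 12 windows were called by limma in neither direction. CCDC12, a spliceosomal protein, held 10.1 in treated and 0 and 0.420 in IP at nt 16 to 25. GGNBP2 held 11.1 against 0.629 and 0.0725 at nt 204 to 213, and NEDD8-MDP1, a readthrough transcript, 5.0 against 0.457 and 0 at nt 11 to 20. CDK2AP2, a CDK2-associated protein, held 4.25 against 0 and 0.389 at nt 16 to 25, and SMDT1, a regulator of the mitochondrial calcium uniporter, 6.99 against 0 and 1.07 at nt 31 to 40. That treated lies above both IP values in them follows from how they were chosen. Of the 12 genes, CCDC12, NEDD8-MDP1 and SMDT1 had 3 distinct treated values each, and the others 6 to 15.

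The 8 strongest losses were all windows where treated coverage was listed at 0. GGNBP2 held 10.2 in both IP samples at nt 309 to 318, so that in this gene the gain lay 5′ of the loss. ISCU held 9.98 and 10.7 at nt 224 to 233, and CCDC12 10.1 and 9.62 at nt 116 to 125, again 3′ of their gains, as was SMDT1 with 12.6 and 8.99 at nt 136 to 145. ADD1, a cytoskeletal adducin, held 9.81 and 10.1 at nt 141 to 150. RANGRF, a Ran-binding protein, held 9.59 and 10.4 at nt 116 to 125. REEP6, a protein that shapes the endoplasmic reticulum, held 9.74 and 9.58 at nt 51 to 60. POLD2, a subunit of DNA polymerase delta, held 10.4 and 9.39 at nt 340 to 349. They were chosen for their low ratios, so no test is given for them. These regions had 3 to 8 distinct treated values.

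Genes of the listed groups were sparse in the fit. Where a window is given for one of them, it had the largest agreed difference of its gene's region, so no p-value is given for it. Of 40 translation factors, EIF3B and EIF4G2 were in the fit, and both had lower windows (the background being 42.1% of genes). EIF4G2, a non-canonical initiation scaffold, held 1.73 and 1.84 in IP and 0 in treated at nt 120 to 129. Of 39 splicing factors and hnRNPs, HNRNPA0, HNRNPL, SRSF1 and SRSF3 were in the fit, and 0 had a called window or shift. SRSF1, a splicing factor of the SR family, held 3.55 and 2.30 in IP and 0.283 and 0.281 in treated at nt 122 to 131 (log2 ratio −1.84). HNRNPL had a log2 ratio of −0.73 at nt 75 to 84. Of 35 genes of oxidative phosphorylation, 3 had a region in either table. NDUFA8 and ATP5F1D, a subunit of the ATP synthase, were in the fit. ATP5F1D, with a pileup of 4001 and 6753, held 4.24 and 4.81 in IP and 7.26 in treated at nt 91 to 100, a log2 ratio of 0.55.

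Of 20 genes of m1A and RNA methylation only ALKBH5, the m6A demethylase, was in the fit, and it had 0 called windows. It held 3.01 and 2.54 in IP and 0.507 and 0.485 in treated at nt 719 to 728, the largest agreed difference in its region (log2 ratio −1.63). PSMB4, 1 of 29 proteasome genes, held 6.06 and 4.92 in IP and 0 in treated at nt 51 to 60, with 7 distinct treated values. PTMS was 1 of 17 genes of the list of histones and nuclear proteins. Of 21 cytoskeletal genes ACTN1, alpha-actinin, held 3.70 and 3.78 in IP and 0.931 in treated at nt 254 to 263 (log2 ratio −1.55). It had a called window in 1 transcript only. COTL1, an F-actin-binding protein, had a log2 ratio of −0.53 at nt 41 to 50. None of 80 cytosolic ribosomal protein genes and none of 29 chaperones was in the fit, although 2 of the ribosomal protein genes had a region in either table. Of 10 markers of other cell types 0 had a region in either table, and since only called peaks are covered, the identity of the cells cannot be checked from these values.

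In knockout cells the displaced share between treated and IP was smaller than in wild type, and so was that between the IP samples. Set against the distance between IP samples, treated was thus not nearer to IP in knockout. Windows present in all 4 tables numbered 2612, in 87 regions of 60 genes. There the median displaced share between the IP samples was 6.0% in wild type and 3.37% in knockout, and between treated and IP it was 11.6% and 11.5% in wild type and 7.60% and 7.63% in knockout. The SD of the log2 ratio of treated over IP over windows was 1.01 in wild type and 0.48 in knockout. Treated coverage was 0 in 155 of these windows in wild type and in 20 in knockout, against 7 to 14 in the IP samples. In a limma interaction fit the ratio was higher in knockout in 101 windows (3.87%) and lower in 23 (0.881%), in 18 genes. Each genotype has 1 treated sample, so the fit compares these libraries, with the spread taken from the IP samples, and a difference between genotypes cannot be told apart from one between 2 treated libraries. Wild-type treated coverage was 0 in 68 of the 124. The part of the thinner wild-type treated library in these calls was not tested.

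In 3 of the 4 windows given here every library had coverage, the exception being NMT1. In CDT1, a licensing factor of DNA replication, the window at nt 66 to 75 held 3.02 and 3.07 in wild-type IP and 1.25 in wild-type treated. In knockout it held 1.95 and 1.92 in IP and 2.30 in treated, and the log2 ratios of −1.01 and 0.20 differed by 1.22 (SE 0.10, limma, adjusted p = 0.0214). In CCN1, a secreted matrix protein, the order was the opposite at nt 171 to 180. This window lies next to the region's end, and wild-type treated coverage was highest in the last window, nt 176 to 185 (13.9). Wild type held 2.81 and 2.13 in IP and 11.6 in treated, and knockout 9.53 and 8.74 in IP and 2.22 in treated, a difference of −3.86 (SE 0.26, limma, adjusted p = 0.0181). In SLIRP (NM_001267863), at nt 166 to 175, wild type held 5.44 and 5.26 in IP and 0.926 in treated. Knockout held 3.92 and 3.96 in IP and 5.37 in treated, a difference of 2.44. In its transcripts NM_001267864 and NM_031210 the difference at these positions was 2.01 and 2.37. NMT1, an N-myristoyltransferase, held 6.48 and 6.43 in wild-type IP, 0 in wild-type treated, 9.19 and 9.41 in knockout IP and 6.43 in knockout treated at nt 131 to 140, on 3 distinct wild-type treated values. The genes with most called windows were SLIRP with 32, NSMF with 25 and the noncoding CHASERR with 15, over 3, 3 and 2 transcripts. These 4 examples were chosen after their values were seen.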

How the data were processed

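Coverage tables of WT and KO replicates and the WT peak lists were used. Per the file headers, each table gives treated and IP coverage per window, a normalized signal, and a score equal to treated minus IP. The deposited signal sums to about 200 per region, as scaled by the authors. Peaks were called per replicate with MACS2, per the peak names in the deposited lists. Pileup (signal) and fold enrichment are the authors' values, as deposited, and describe peaks only. Trim Galore, HISAT, MACS2 and the build hg19 appear, without versions, per the submitters' processing notes. The steps of the window normalization are not stated.

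Tables were matched on transcript and window start (regions of at least 10 shared windows), rescaled to sum 200, and windows with a mean of at least 0.5 were tested on log2(coverage + 0.5) with limma 3.58.1 (R 4.3.3), 2 IP against 1 treated sample, two-sided, Benjamini-Hochberg, threshold 0.05. Centroids and shares of 3 equal parts used the same fit. The interaction used windows of all 4 tables. Code was checked on simulated data. Python 3.11.15 with pandas 2.3.3 did the rest. RefSeq symbols (GRCh38.p14 gene table, names only) matched 98.4% of transcripts. Named genes: the 12 highest and 8 lowest agreed window ratios (the value nearer 0 of both tables), the 6 smallest and 6 largest excess displaced shares, and up to 12 genes of 10 lists. The members and lists were chosen with earlier results of these data known. Depth of these libraries is unknown, so no interval is given. One gene's result is not reported here.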

Additional observations from a re-analysis of the deposited data

Results flagged for a closer look

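In an interaction fit, the treated over IP ratio was called higher in the knockout libraries than in the wild-type libraries in 101 windows and lower in 23 (limma, adjusted p under 0.05, of 2612 windows in all 4 tables). Each genotype has 1 treated sample, so genotype and treated library cannot be told apart, and wild-type treated coverage was 0 in 68 of the 124. These include SLIRP, NSMF, CHASERR, STK40 and NMT1. In NSMF 23 of 25 and in STK40 8 of 8 called windows had wild-type treated coverage listed at 0, and in CDT1, CCN1, GINM1 and IGSF8 none did. Groups of 2 IP samples and 1 treated sample were too small to look for a sample that stands apart.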

How the results depend on the processing

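Window calls depended most on the processing. Against 69 higher and 770 lower windows, both counts were 0 with no filter on low values and 0 with no rescaling. They were 12 and 227 with at least 10 distinct treated values, and 1618 lower with windows matched within 2 nt. A pseudocount of 2 gave 414 lower, and a trended, robust variance gave 139 higher. Centroid calls toward 5′ and 3′ were 22 and 13 within 2 nt, and 17 toward 3′ with at least 10 distinct values. For the 5′ part, higher and lower calls were 3 and 0 with at least 20 windows, 0 and 0 within 2 nt, and 30 and 16 with at least 10 distinct values. For the middle part they were 6 and 7 with 1 region per gene and 61 and 69 within 2 nt. For the 3′ part they were 0 and 0 within 2 nt, 23 and 43 with 1 region per gene and 20 and 37 with at least 10 distinct values. The balance of higher and lower calls thus turned for the middle part (27 and 19) and the 3′ part (16 and 15). Windows 2-fold higher and lower numbered 229 and 945 with a pseudocount of 2, 68 and 965 at 4-fold, and 1164 and 4172 within 2 nt, and 1327 were higher at 1.5-fold. Interaction calls higher in knockout were 165 with a pseudocount of 0.1 and, higher and lower, 67 and 8 with no rescaling. The median displaced share (15.4%) was 16.5% within 2 nt and 14.0% with at least 10 distinct values. Leaving out each IP replicate gave 992 to 1016 windows 2-fold higher, 1948 to 1998 lower, a displaced share of 14.7% to 15.7% and a median centroid shift of −1.75 to −1.22 nt. The fits across windows and regions have no spread left without 1 IP replicate and were not tested so. The 30 named windows kept their sign in all 150 alternative values, but this was largely fixed in advance. They were chosen for the same sign in both tables, and a pseudocount cannot turn a sign, so it is no support for them. The 2-nt matching and the minimum of 10 distinct values were chosen after seeing the data. The cause of these changes was not tested.

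No paired analysis was possible because the treated coverage is 1 sample, held by the tables of both replicates. Precision is limited by 2 IP samples against 1, by the unknown depth, and by treated profiles of few levels. Overlapping windows and transcripts of 1 gene repeat the same signal.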
